A study of Mus musculus with 15 samples.

Results

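Border pixels were selected in spatial transcript tables of mouse embryo sections as tissue pixels with at least 2 summed counts of En1, En2, Pax5 and Fgf17 and at least 1 count of Sox2, a combination meant to mark the border between midbrain and hindbrain. Of 7270 tissue pixels in the 6 libraries that were searched, 286 met the rule, and 17046 tissue pixels were measured in all 11 transcript libraries of the series. A pixel is the crossing of a pair of microfluidic channels that carry barcodes over the section. It holds a small region of tissue, which can contain several cells of different types. Pixels were set aside as lying off the tissue where their total fell below 0.1 of a reference level, the 95th percentile in the same library.

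The 6 libraries were sections of embryos at embryonic day 10 (E10) with pixels 50 µm wide (3 sections, replicates 1 to 3), at E11 with 25 µm pixels (2 sections) and at E12 with 50 µm pixels (1 section). The labels name no treatment, genotype or strain, and leave the embryo of each section and its plane unnamed. Whether the 3 E10 sections came from different embryos is therefore unknown. The p-values rest on how far the difference between classes of pixel varied from section to section, which may be technical. Summed over tissue pixels, the E10 sections held 8390545 to 11348089 counts, the E11 sections 5066401 and 7677938, and the E12 section 6499879. The median total per tissue pixel was 11332, 8239 and 10659 in E10 replicates 1 to 3. It was 2530.5 and 4343.5 in the E11 sections and 3560 in the E12 section.

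The midbrain-hindbrain border is known as an organizer, a narrow ring of the neural tube that patterns the tissue on both of its sides. Otx2 marks the midbrain side and Gbx2 the hindbrain side, and cells at their boundary secrete Wnt1, Fgf8, Fgf17 and Fgf18. The homeobox genes En1 and En2 and the paired box genes Pax2, Pax5 and Pax8 are active across the border, and FGF signals induce their own inhibitors there, such as the Sprouty genes and Il17rd. En1 is also known in ventral interneurons of the spinal cord and hindbrain, and Fgf17 and Fgf8 are also known at the front of the forebrain.

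The selected pixels lay almost wholly in the E10 sections, whose pixels also held more counts. The rule asks for the same number of counts at any depth, and the part of depth in these numbers was not tested. Sections 1, 2 and 3 of E10 (replicates 1, 2 and 3) held 122, 20 and 143 border pixels, beside 534, 473 and 509 other pixels with Sox2, which codes for a transcription factor of neural progenitors. At E11, replicate 1 held 0 and replicate 2 held 1, beside 320 and 490 other Sox2-positive pixels, and E12 held 0 beside 136. En2 and Otx2 were not analysed in the E11 sections, and Fgf17 was read there in replicate 2 only, with 1 count over all tissue. The rule thus rested on fewer markers at E11, where tissue counts of En1 were 15 and 37 and of Pax5 3 and 8. In the E12 section En1 had 45 tissue counts, Pax5 had 8 and En2 had 1. The single E11 pixel had 3 counts of En1, 1 of Pax5, 1 of Gbx2 and 5 of Lhx1, a gene of several kinds of interneuron. The label of a midbrain-hindbrain border could therefore not be checked at E11 or E12, and what follows is about E10.

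**Figure D1:**
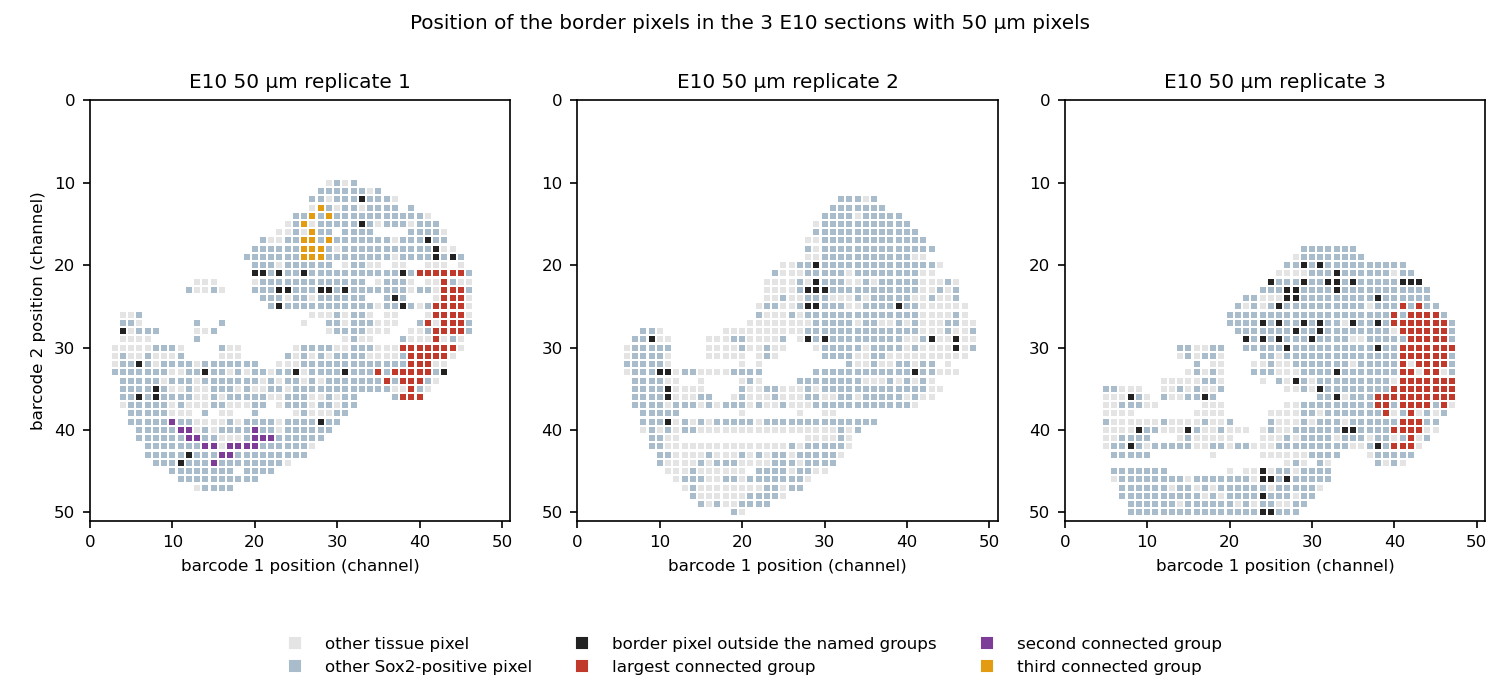
Position of every tissue pixel on the barcode grid (axes: channel number of each barcode) in the 3 E10 sections with 50 µm pixels. Sections 1 and 3 each have a compact strip of border pixels (red, 59 and 92 pixels) at the right side of the grid, section 2 has no group of border pixels above 4, and section 1 has 2 further groups (purple, 18 pixels, and orange, 14 pixels) away from the strip.

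On the grid, border pixels formed a compact strip in section 1 and in section 3. Pixels were joined into a group when they touched by a side or a corner. The largest group held 59 of 122 border pixels in section 1 (48.4%) and 92 of 143 in section 3 (64.3%), but only 4 of 20 in section 2. A border pixel had another border pixel among its 8 neighbours in 86.9%, 60% and 83.2% of cases in sections 1, 2 and 3, and an other Sox2-positive pixel had one in 40.6%, 13.3% and 46.4%. The positions of the pixels were not used by the rule. The grouping was done after the values were seen and is given as a description.

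The values that selected the pixels were small. The median summed count of the 4 marker genes was 3 in each E10 section, and 50, 8 and 53 pixels had exactly 2. En1 was at 41.8, 27.0 and 53.3 CPM (counts scaled to a class total of 1000000) in the border pixels of sections 1, 2 and 3, En2 at 72.8, 10.8 and 81.0, Pax5 at 57.3, 110.8 and 78.9, and Fgf17 at 38.6, 54.0 and 15.4. Section 2 differed from the other sections in its mix, with little En2. Sox2, which every pixel of both classes had to show, was at 247, 224 and 201 CPM in border pixels and at 290, 258 and 276 in the others. At least 2 of the 4 markers were seen in 83 of 122, 11 of 20 and 108 of 143 pixels, and all 4 in 1, 0 and 13.

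Just outside the threshold lay 122, 29 and 136 Sox2-positive pixels with 1 marker count. Cnpy1, a gene the rule did not use, was at 30.6, 15.6 and 42.4 CPM in pixels with exactly 2 marker counts, at 13.7, 2.71 and 25.9 in those with 1, and at 10.7, 1.33 and 17.8 in those with 0. Border pixels also had more counts. Their median total was 17334, 18799 and 18513 in sections 1, 2 and 3, against 12452, 10325 and 11335 in other Sox2-positive pixels, and the part of depth in the selection was not tested.

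Each marker was then read in pixels chosen with the other 3, which leaves it independent of the choice (edgeR's quasi-likelihood test on summed counts, section as a block, p-values adjusted by Benjamini-Hochberg over all genes tested). Pax5 was higher in the 211 pixels so chosen, at 49.5, 35.9 and 73.5 CPM in sections 1, 2 and 3, against 10.4, 8.15 and 16.4 in other Sox2-positive pixels. Its log2 fold change was 2.20 (adjusted p = 4.22e-15), the largest of 13554 genes. En1 was higher as well, at 21.9, 21.9 and 47.2 CPM against 9.42, 0.706 and 10.6 (log2 fold change 1.93, adjusted p = 0.000246). DESeq2 gave En1 a log2 fold change of 2.57 with an adjusted p of 0.762. En2 was at 41.4, 2.90 and 72.3 CPM against 17.0, 0.886 and 16.1 (log2 fold change 1.77, adjusted p = 3.32e-06). The En2 level of section 2 rests on a single count in the chosen pixels.

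Fgf17, tested in the same way, was at 6.54, 4.58 and 10.1 CPM in the 240 pixels chosen without it, against 12.1, 5.37 and 4.73 in the others. It was lower in sections 1 and 2 and higher in section 3, and the difference was not called (log2 fold change 0.15, adjusted p = 0.959). In these 4 fits the share of all tested genes called higher was 0.322% for En1, 0.409% for En2, 0.398% for Pax5 and 1.02% for Fgf17. For En1, En2 and Pax5 the difference within sections was thus called by edgeR, and for Fgf17 it was not detected. With the section as a block, the test weighs that difference against its variation from section to section, not against the spread of levels between sections. Whether Fgf17 differs from the other markers in this was not tested.

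The connected groups differed in which markers they carried. The strips of sections 1 and 3 were rich in En2, at 159.7 CPM (95% counting interval 134 to 189) and 105.1 (91.1 to 121), and Pax5 was at 97.7 and 97.8 CPM. Cnpy1 was at 108 and 117.6 CPM in the 2 strips, and the midbrain gene Otx2 was at 187 and 225. Intervals given here are exact Poisson intervals and cover counting error only.

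The second group of section 1 (18 pixels) had the highest En1, at 143.7 CPM (106 to 191), with 0 counts of En2, which allows up to 9.17 CPM (3 counts). Gbx2 was at 116.2 CPM in it and Otx2 at 3.06. Lhx1 was at 327, Glra1, a glycine receptor subunit, at 128, and Hoxb5, a gene of the posterior hindbrain and spinal cord, at 125 CPM. The same group had Pax8 at 52.0 CPM and Pax2 at 30.6, above 4.78 and 3.32 in other Sox2-positive pixels. It thus met the rule with a gene content unlike that of the strip.

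The third group of section 1 (14 pixels) carried 61 of the 87 Fgf17 counts in border pixels of that section, at 207.7 CPM (159 to 267), and 0 counts of En2, which allows up to 10.2 CPM. Fgf8 was at 64.7 CPM. Nkx2-1, a ventral forebrain gene, was also at 64.7 CPM, against 9.03 in other Sox2-positive pixels, and Six3, a homeobox gene known in forebrain and midbrain, at 160.1 against 30.7. Il17rd was at 183.9 and Dusp6 at 119.2 CPM. By their leading genes, the second and the third group went against the label of a midbrain-hindbrain border, although Pax2, Pax8 and Gbx2 were high in the second. In the strips of sections 1 and 3, Cnpy1 and Otx2, which the rule did not use, were high. En2 and Pax5 were high there too, but they belong to the rule and do not bear on the label. Among other border genes, edgeR called Fgf18 (log2 fold change 1.43), Spry1 (1.46) and Etv5 (0.79) higher in the strips alone. It did not call Gbx2, Pax2, Fgf8, Pax8, Lmx1b, Wnt1, Spry2, Spry4, Dusp6 or Etv4. There Gbx2 (log2 fold change -0.87) and Pax2 (-1.17) were lower, and Fgf8 (1.31), Pax8 (0.51), Lmx1b (0.53) and Wnt1 (0.20) higher.

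The remaining border pixels were mixed. In section 2, Cnpy1 was at 13.5 CPM against 1.42 in other Sox2-positive pixels and Otx2 at 246 against 95.1, but En2 was at 10.8 (2.94 to 27.7) on 4 counts, and Hoxb9 was at 237.8 against 119.6. The 31 remaining pixels of section 1 had En2 at 32.9, Cnpy1 at 7.89 (2.90 to 17.2) and Otx2 at 94.7 CPM. The 51 remaining pixels of section 3 had En2 at 34.8, Cnpy1 at 24.9 (16.1 to 36.7) and Otx2 at 222. In both sections their Cnpy1 interval contained the level of the other Sox2-positive pixels, 11.4 and 20.4. For these pixels the label was not settled by the markers.

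**Figure D2:**
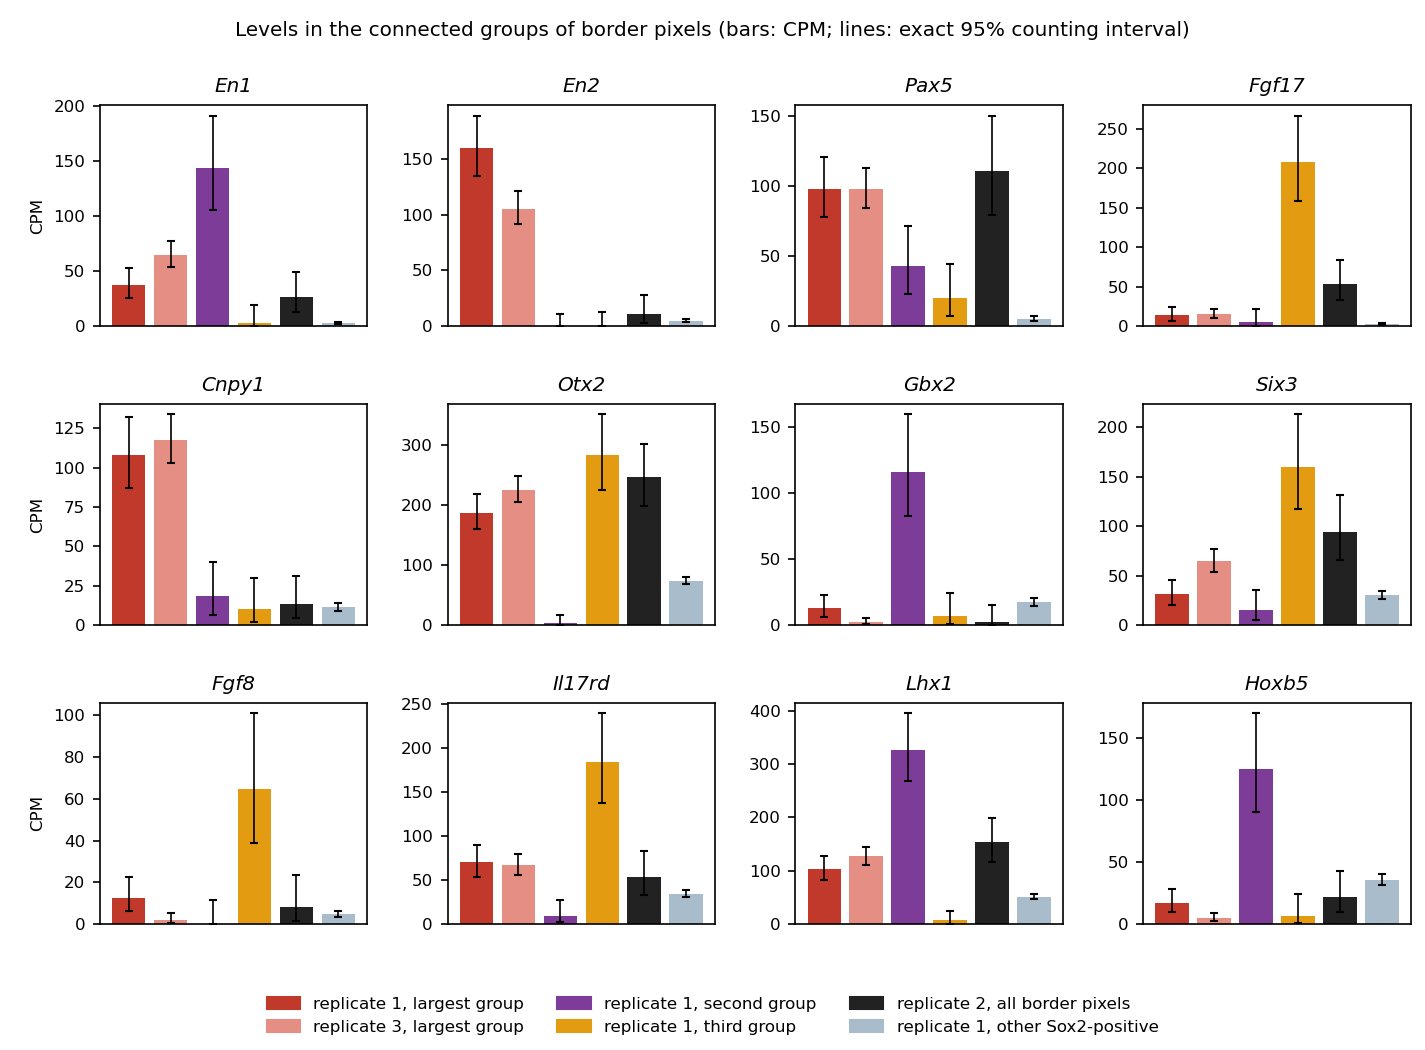
Level (CPM, bars) of 12 genes in the connected groups of border pixels, in all border pixels of section 2 and in other Sox2-positive pixels of section 1, with exact 95% counting intervals (lines). En2 and Cnpy1 are high in both strips (red), En1, Gbx2, Lhx1 and Hoxb5 in the second group (purple), and Fgf17, Six3, Fgf8 and Il17rd in the third (orange).

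All border pixels were compared with other Sox2-positive pixels within the 3 E10 sections, with the counts of each class summed per section (285 against 1516 pixels). Of 13831 genes tested, 78 were higher (0.564%) and 87 lower (0.629%) in border pixels at an adjusted p under 0.05, and 1260 genes had an unadjusted p under 0.05. The higher genes included regulators of the border and of midbrain neurons, and the lower ones included genes of the heart, mesenchyme and red cells. The section entered the model as a block because both sums come from the same section. Without it edgeR called 0 genes (218 at an unadjusted p under 0.05). DESeq2 with the block called 11 higher and 7 lower. Without section 1, 36 were higher and 26 lower, without section 2, 133 and 130, and without section 3, 56 and 42. Of the genes named here, Cnpy1, Tal2, Gata3, Otx2, Il17rd, Meis2, Dcx, Hba-x, Ttr, Myl7, Actc1, Ttn, Tbx20, Tagln and Prrx1 passed in all 3 of these fits, and the other called genes failed, or had no value, in at least 1 of them.

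Cnpy1 gave the smallest adjusted p of all genes. It codes for a canopy family protein linked to FGF signalling at this border in zebrafish. Cnpy1 was at 48.4, 13.5 and 85.8 CPM in border pixels of sections 1, 2 and 3, against 11.4, 1.42 and 20.4 in the others, higher in all 3 sections. Its log2 fold change was 2.12 (adjusted p = 3.70e-12), and the log2 ratio over the sections was 2.47 ± 0.68 (SD, n = 3). The call held under DESeq2 and without each section in turn, but not for border pixels outside the strips. Cnpy1 lies next to En2 on chromosome 5 of GRCm38, with En2 at 28165694 to 28172166 on the plus strand and Cnpy1 at 28200819 to 28245806 on the minus strand (GENCODE M21), 28653 bases apart.

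The 250 bases before a RefSeq start site (build GRCm38.p6) are shown for Cnpy1, Pax5 and En1 because Cnpy1 had the smallest adjusted p and Pax5 and En1 are the genes of the rule with a window in the table. The table had windows for 3 of the 5 genes looked up, and En2 and Fgf17 are named only. Capitals mark the homeodomain core letters TAATTA or TAATTG on either strand, which 11.3% of 32851 such windows hold. Cnpy1 has 2 windows, and the one shown, chr5:28210169-28210418 on the minus strand, holds 1 match, while the other holds 0. The windows of Pax5 (chr4:44710695-44710944, minus strand) and En1 (chr1:120602237-120602486, plus strand) hold 0. A match is a description of the letters and not a binding site.
Cnpy1: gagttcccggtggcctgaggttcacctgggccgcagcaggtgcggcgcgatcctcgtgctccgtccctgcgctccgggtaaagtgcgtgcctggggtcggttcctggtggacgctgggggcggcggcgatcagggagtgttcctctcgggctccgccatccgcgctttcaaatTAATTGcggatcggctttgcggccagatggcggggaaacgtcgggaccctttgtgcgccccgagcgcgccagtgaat
Pax5: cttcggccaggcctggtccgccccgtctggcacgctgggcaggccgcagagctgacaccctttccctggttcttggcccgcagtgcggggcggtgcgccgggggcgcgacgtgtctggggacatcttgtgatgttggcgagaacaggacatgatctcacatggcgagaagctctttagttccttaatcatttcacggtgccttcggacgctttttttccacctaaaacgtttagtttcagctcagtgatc
En1: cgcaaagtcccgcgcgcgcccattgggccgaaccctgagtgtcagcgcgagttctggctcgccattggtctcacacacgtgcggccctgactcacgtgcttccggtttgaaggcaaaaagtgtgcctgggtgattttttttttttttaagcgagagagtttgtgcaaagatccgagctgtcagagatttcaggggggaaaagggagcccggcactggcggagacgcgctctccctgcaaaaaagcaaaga

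Of the 12 border organizer genes outside the rule, 11 were tested, 4 were higher and 0 lower, with a median log2 fold change of 0.35 against -0.000541 over all tested genes. Besides Cnpy1 and Otx2 these were the secreted ligands Fgf8 and Fgf18. Fgf8 was at 14.7, 8.11 and 2.73 CPM against 4.65, 0.356 and 1.09 (log2 fold change 1.77, adjusted p = 0.0126), on 33, 3 and 8 counts. Its call was lost without section 1 (adjusted p = 0.503) and for the strips alone (adjusted p = 0.341). Of the 33 counts in section 1, 19 lay in the third group with Fgf17. Fgf18 was at 9.77, 18.9 and 17.8 CPM against 5.71, 7.83 and 7.65 (log2 fold change 1.07, adjusted p = 0.0189). Without section 3 its adjusted p was 0.540. The strips alone kept the Fgf18 call (log2 fold change 1.43).

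The remaining organizer genes did not pass. Wnt1, the Wnt ligand of the midbrain side, was at 2.22, 0 and 3.76 CPM against 4.65, 3.03 and 2.34 (log2 fold change -0.26, adjusted p = 0.946), on 5, 0 and 11 counts. Gbx2 was at 26.2, 2.70 and 5.47 CPM against 17.4, 5.87 and 6.71 (log2 fold change 0.27, adjusted p = 0.854), higher in section 1 and lower in the other sections. Pax2 (log2 fold change 0.24), Lmx1b (0.08) and Pax8 (0.99, adjusted p = 0.111) were not called. Pax8 was nevertheless higher in all 3 sections, at 12.9, 13.5 and 10.3 CPM against 4.78, 2.85 and 8.12. Wnt1, Pax2, Pax8 and Lmx1b had at most 30 counts each in the border pixels of any section. The part of these low counts in the missing calls was not tested.

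Of 14 FGF feedback and target genes, 2 were higher and 1 lower (median log2 fold change 0.31). Spry1, a Sprouty inhibitor of receptor signalling, was at 27.1, 18.9 and 21.2 CPM against 8.23, 4.45 and 13.1 (log2 fold change 1.26, adjusted p = 0.000718). Without section 1 its adjusted p was 0.224. Il17rd, a membrane inhibitor of FGF signalling, was at 68.0, 54.0 and 57.1 CPM against 34.7, 25.5 and 36.1, higher in all 3 sections (log2 fold change 0.85, adjusted p = 8.46e-05). The receptor Fgfr3 was lower in all 3 sections, at 56.9, 27.0 and 81.7 CPM against 85.8, 48.1 and 115 (log2 fold change -0.54, adjusted p = 0.00189). Etv5 (0.45), Etv4 (0.47), Spry2 (0.40), Spry4 (0.35) and Dusp6 (0.34) had positive log2 fold changes and were not called. Their adjusted p lay between 0.400 and 0.932.

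The midbrain list had 5 genes higher and 1 lower of 13 tested (median log2 fold change 0.35). Tal2 and Gata3, regulators of inhibitory neurons of the midbrain, both passed. Tal2 was at 37.8, 2.70 and 35.5 CPM against 7.70, 0.712 and 10.6 (log2 fold change 2.01, adjusted p = 1.83e-08), with 1 count in section 2. Gata3 was at 39.98, 18.9 and 78.9 CPM against 20.2, 11.4 and 24.7 (log2 fold change 1.34, adjusted p = 3.17e-07). Both calls held without each section in turn. Helt, another regulator of midbrain inhibitory neurons, rested on 21, 1 and 31 counts (log2 fold change 2.07, adjusted p = 0.000945), and 20 and 28 of these lay in the strips of sections 1 and 3. Without section 3 its adjusted p was 0.102. The homeobox gene Dmbx1 was at 12.4 and 18.5 CPM in sections 1 and 3 against 3.98 and 7.80, and had 0 counts in section 2 (log2 fold change 1.34, adjusted p = 0.00705). Otx2 was at 142, 246 and 224 CPM against 73.8, 95.1 and 161 (log2 fold change 0.80, adjusted p = 2.69e-05).

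Otx2 did not pass when depth was matched. Among border pixels paired with other Sox2-positive pixels of nearly equal total count (278 pairs), its log2 fold change was 0.45 (adjusted p = 0.123), while Cnpy1, Tal2, Gata3, Foxa2, Spry1 and Il17rd kept their calls. Fgf18 (log2 fold change 1.15, edgeR adjusted p = 0.117) and Dmbx1 (1.35, adjusted p = 0.0581) lost theirs too. So did Kcnab1, Lrtm1, Pmfbp1, Shisa3, Gad2, Sim1 and Map2. This pairing was added after the data were seen. Meis2, a homeobox gene of broad neural expression, was the lower gene of the list, at 242, 203 and 217 CPM against 293, 312 and 305 (log2 fold change -0.42).

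Hes3, a repressor known at the border, had the largest log2 fold change among called genes that moved the same way in every section, 2.54 (adjusted p = 0.00652). It rested on 6, 1 and 24 counts, and was not called without section 3 (adjusted p = 0.894). Foxa2, a floor plate gene, was at 6.66, 5.403 and 30.8 CPM against 1.86, 0.356 and 11.5 (log2 fold change 1.59, adjusted p = 0.000536), and was the 1 called gene of 8 tested in the ventral midbrain list. Without section 3 its adjusted p was 0.0821. Kcnab1 (1.81), Lrtm1 (1.51), Pmfbp1 (1.40), Asic4 (1.36) and Shisa3 (1.34) completed the 12 genes with the largest positive log2 fold changes.

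**Figure D3:**
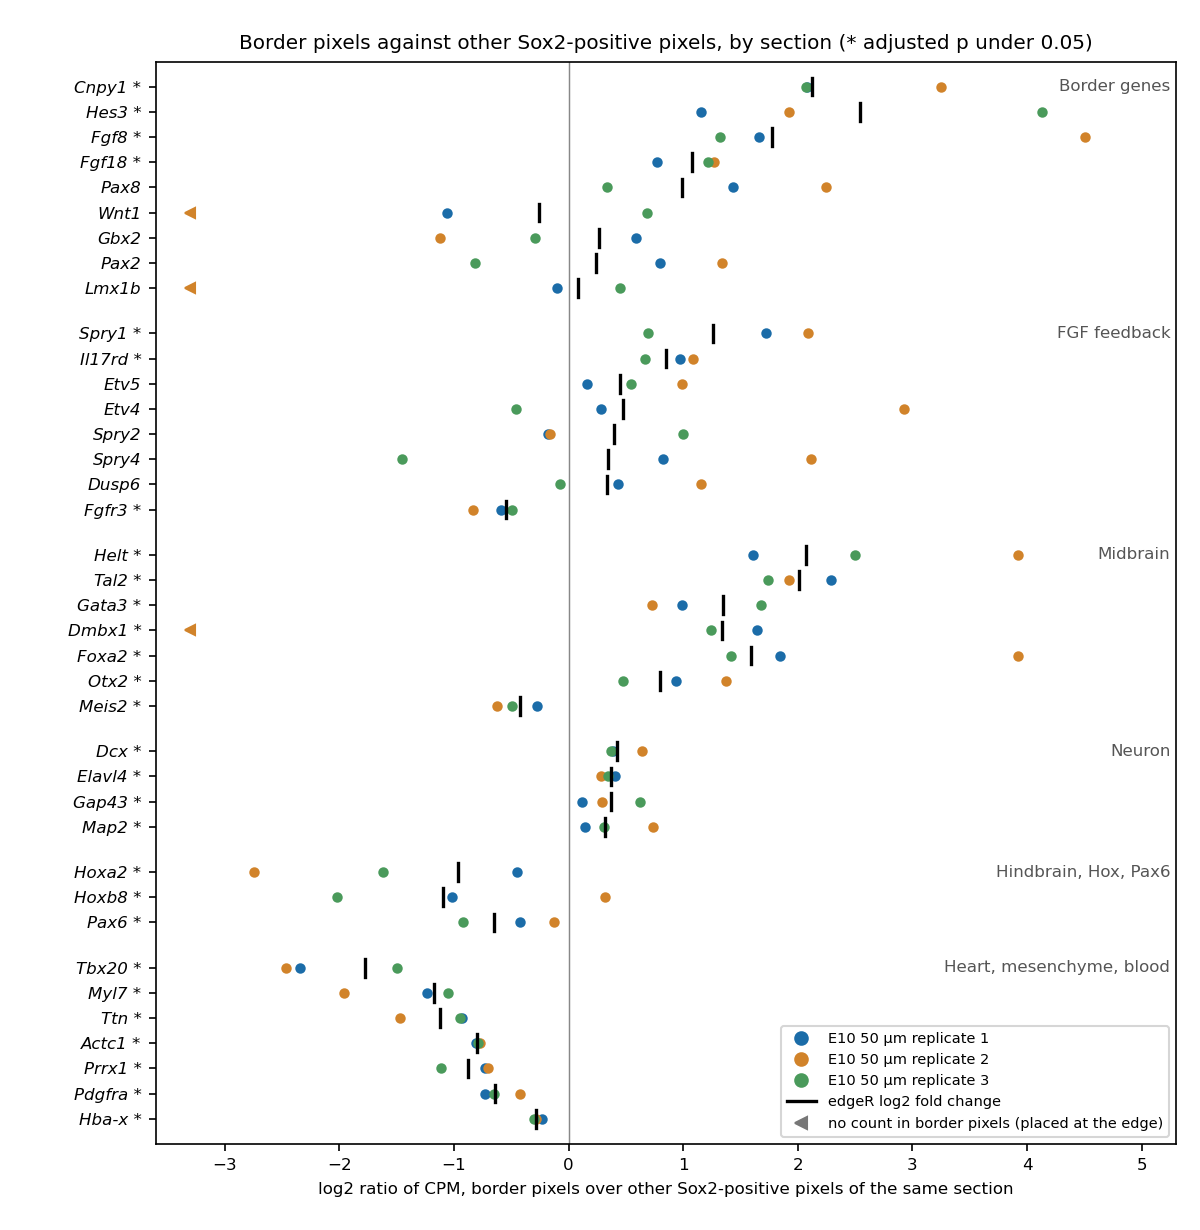
Log2 ratio of CPM in border pixels over other Sox2-positive pixels of the same section (points, 1 per E10 section) with edgeR's log2 fold change (black bar) for genes grouped by role. Called genes carry a star. Cnpy1, Tal2, Gata3 and Il17rd lie above 0 in all 3 sections, while Wnt1, Gbx2, Pax2 and Lmx1b straddle 0 or have a section with no count.

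Lists for other regions of the neural tube had few called genes. Of 10 forebrain genes tested, none passed in edgeR in either direction (median log2 fold change -0.18). Of 9 anterior hindbrain genes, Hoxa2 was lower, at 21.3, 2.70 and 6.49 CPM against 29.2, 18.2 and 20.0 (log2 fold change -0.96, adjusted p = 0.0152). Of 9 posterior Hox genes, Hoxb8 was lower (log2 fold change -1.10, adjusted p = 0.0422), although its CPM was higher in section 2, 16.2 against 13.0. Pax6, a paired box gene of forebrain, hindbrain and spinal progenitors, was at 68.4, 113 and 137 CPM against 91.9, 124 and 259 (log2 fold change -0.65, adjusted p = 8.46e-05). In the strips alone its log2 fold change was -1.48. Without section 3, Pax6 (adjusted p = 0.538) and Hoxa2 (adjusted p = 0.557) were not called by edgeR.

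Of 9 neuron genes tested, Dcx, Elavl4, Gap43 and Map2 were higher, with log2 fold changes of 0.32 to 0.42, and Elavl3, Nefl, Nefm, Stmn2 and Tubb3 did not pass. Dcx, a microtubule protein of young neurons, was at 464, 311 and 507 CPM against 356, 199 and 394. Of 10 neural progenitor genes, Nes was higher (0.27) and Pax6 lower. Of 8 cell cycle genes, Ccnd2, a D cyclin, was higher (0.33), at 1774, 1737 and 2617 CPM against 1210, 1475 and 2280. Gad2, an enzyme of GABA synthesis, was the 1 called gene of 8 in the V1 interneuron list (0.63), and Sim1 the 1 of 6 in the somite list (1.03). The median log2 fold change was 0.59 in the V1 interneuron list, above that of the border organizer list, and -0.11 in the somite list. Summed over the V1 interneuron list, levels were 303, 330 and 322 CPM against 192, 218 and 266. The part of En1-positive interneurons in the selected pixels was not tested.

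Lists of non-neural tissue differed in how many genes were called. Of 6 heart muscle genes tested, Myl7, Actc1, Myh6 and Myh7 were lower. Myl7, the atrial light chain, was at 31.1, 21.6 and 48.9 CPM against 73.2, 83.8 and 101 (log2 fold change -1.18, adjusted p = 2.02e-08). Prrx1 and Pdgfra of 7 mesenchyme genes were lower, Prrx1 at 32.9, 64.8 and 23.6 CPM against 54.4, 106 and 50.9 (log2 fold change -0.88). Of 9 red cell genes Hba-x (-0.28) and Hbb-bs (-0.36) were lower. Of 7 endothelial genes and of 5 surface ectoderm genes none passed in edgeR. Ttr, which codes for the thyroid hormone carrier transthyretin and stood in the liver list, was at 80.0, 24.3 and 42.0 CPM against 158, 63.9 and 147 (log2 fold change -1.35). The other liver genes had too few counts to be tested, with Serpina1a and Fgb at 0 in every section, and Ttr was at 972 CPM in the Sox2-positive pixels touching the strip of section 1, so its level does not stand for liver here. Summed over each list, heart muscle genes were at 526, 294 and 380 CPM against 628, 713 and 496, and mesenchyme genes at 645, 878 and 454 against 823, 940 and 597.

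In both lists the sum was lower in border pixels of all 3 sections, and of the heart list only Nppa had no count in the border pixels of section 1. Fewer cells of a type and less RNA per cell cannot be told apart in such pixels. With pixels paired on total count, Myl7 (log2 fold change -0.26), Actc1 (-0.17), Ttr (-0.86) and Prrx1 (-0.57) were not called, and Myh6 turned to 0.11. The part of non-neural tissue in the other results was not tested. Among the 12 genes with the largest negative log2 fold changes were also Cemip (-2.19), Tbx20 (-1.78), a cardiac regulator, Col9a3 (-1.61), Adamts18 (-1.57), Tagln (-1.41), Tbx3 (-1.27), Col9a1 (-1.20), Slc4a4 (-1.12), Ttn (-1.12), the giant protein of the sarcomere, and Dsp (-1.10).

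Around the strips, Cnpy1 fell off within a few pixels. Other Sox2-positive pixels at a distance of 1 pixel from the strip had it at 60.05 CPM in section 1 and 40.7 in section 3, those at 2 to 3 pixels at 12.4 and 23.1, those at 4 to 8 pixels at 12.0 and 13.6, and those farther off at 8.56 and 18.8. The pixels at a distance of 1 have by construction fewer than 2 counts of the 4 markers. Il17rd was at 70.1 and 67.1 CPM in the strips, at 48.8 and 36.6 at a distance of 1, and at 24.7 and 27.5 at 2 to 3. Otx2 did not fall off in the same way, with 152 and 362 CPM at 2 to 3 pixels and 40.6 and 79.0 beyond 8. Sox2 was at 196 and 179 CPM in the strips and at 307 and 277 beyond 8 pixels. It belongs to the rule, which asks every pixel for at least 1 count at any depth, so its CPM by distance is not read.

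**Figure D4:**
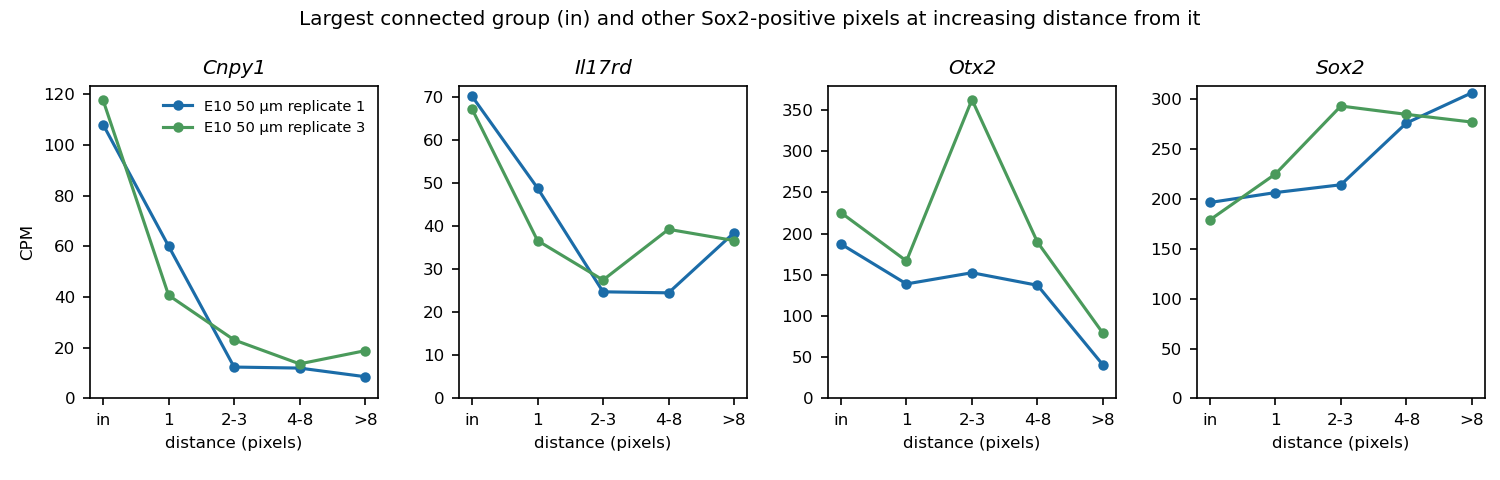
Level (CPM) of 4 genes in the strips (in) and in other Sox2-positive pixels by distance from the strip, counted in pixels of 50 µm, for sections 1 and 3. Cnpy1 drops from above 100 to below 25 CPM within 3 pixels in both sections, while Otx2 peaks outside the strip in section 3. Sox2 belongs to the rule, and its course is not read.

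Each strip was divided into 3 stretches of near-equal pixel number along its long axis, and the end with more Otx2 was placed first. Otx2, which set this order, was at 332, 157 and 50.4 CPM from end to end in section 1 and at 333, 254 and 59.1 in section 3. Six3 was at 117, 47.2 and 9.85 CPM in section 3. In section 1 it was at 64.8, 5.62 and 8.89, with 1 and 3 counts in the last 2 stretches. Stmn2, a microtubule regulator of neurons, was at 919, 719 and 353 CPM and at 1070, 559 and 401, highest at the Otx2-rich end in both. Tubb3, a neuronal tubulin, was level along the strip of section 1, at 583, 585 and 527 CPM, and was at 794, 378 and 284 in section 3. The middle stretch was the shallowest, with a median total of 8518 counts against 17694 and 15893 at the ends in section 1, and of 16661 against 24224 and 17142 in section 3. En2 belongs to the rule, which asks for the same number of marker counts at any depth, so its CPM along the strip is not read; its counts were 43, 41 and 55 in section 1 and 36, 85 and 81 in section 3.

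Cnpy1 was highest in the middle of the section 1 strip, at 259 CPM (189 to 345) against 87.3 and 50.4 at its ends, on 46 against 31 and 17 counts. The part of the lower depth there was not tested. In section 3 it was at 44.7, 161 and 177 CPM, low only at the end with more Otx2. Spry1 was at 39.4, 89.9 and 14.8 CPM in section 1 and at 16.2, 21.6 and 29.6 in section 3, and Il17rd at 84.5, 135 and 20.7 and at 38.5, 84.6 and 90.3. In section 1 these FGF-linked genes were lowest at the Otx2-poor end, and in section 3 lowest at the Otx2-rich end. Gbx2 had few counts in all stretches, 7, 0 and 4 in section 1 and 0, 1 and 3 in section 3. The 7 counts at the Otx2-rich end of section 1 were 19.7 CPM (7.93 to 40.6). Other Sox2-positive pixels of section 1 had Gbx2 at 17.4 CPM.

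**Figure D5:**
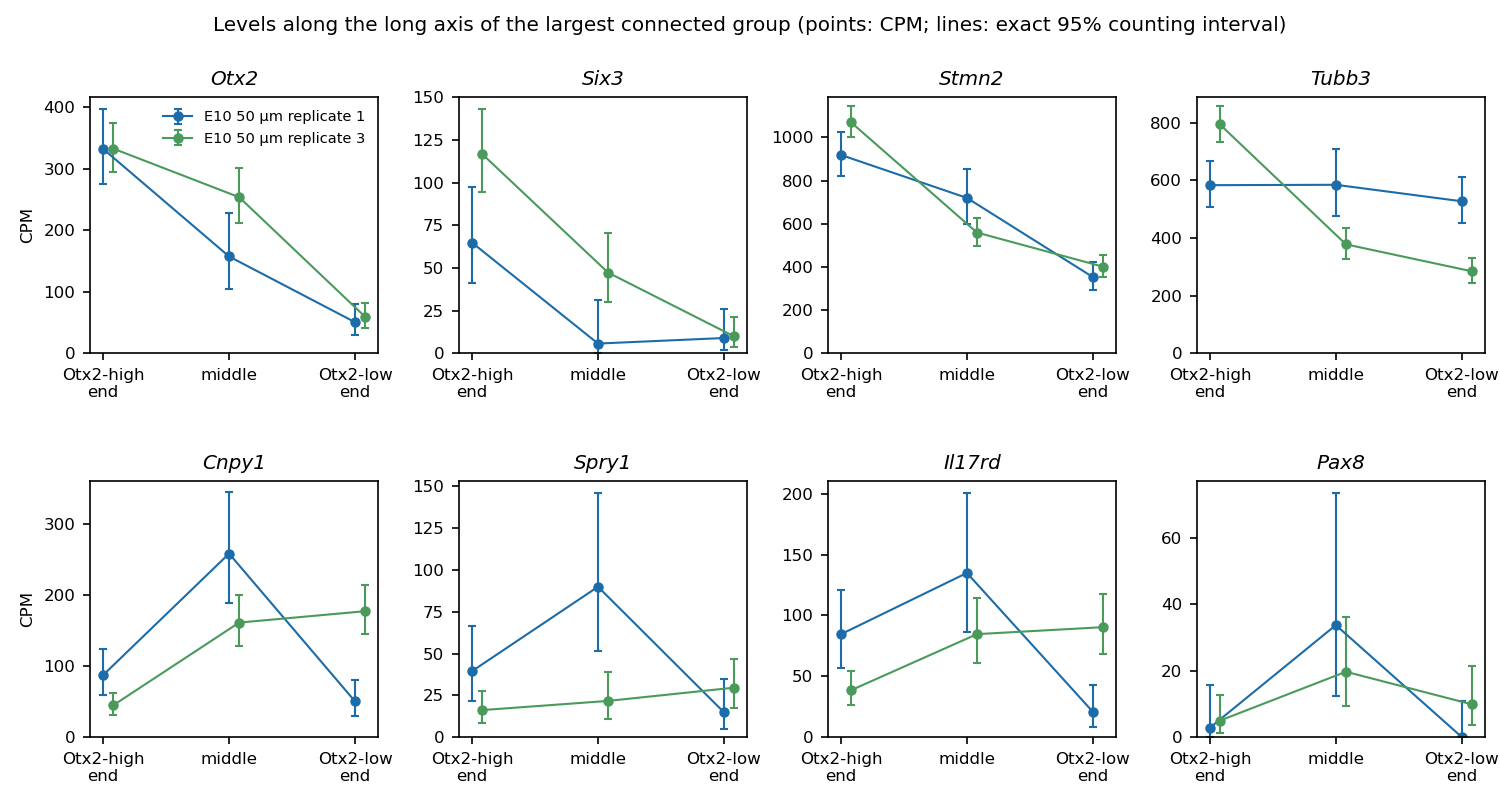
Level (CPM, points) with exact 95% counting intervals (lines) of 8 genes in 3 stretches along the strip of section 1 (blue) and section 3 (green). Otx2, Six3 and Stmn2 decline from left to right in section 3, Tubb3 is level in section 1, and Cnpy1, Spry1 and Il17rd peak in the middle in section 1 only.

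Border pixels were also split by the transcription factors of the midbrain and hindbrain sides. Otx2 without Gbx2 was seen in 58, 12 and 103 border pixels of sections 1, 2 and 3, Gbx2 without Otx2 in 21, 1 and 8, both in 14, 0 and 4, and neither in 29, 7 and 28. In the strips, 33 of 59 and 70 of 92 pixels had Otx2 only, and 4 and 1 had Gbx2 only. Of the 21 Gbx2-only pixels of section 1, 14 lay in the second group. The Gbx2 side of this comparison is therefore mostly tissue outside the strips.

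Sections 1 and 3 had at least 5 pixels of each kind and entered the test (161 Otx2-only against 29 Gbx2-only pixels). Of 9553 genes tested, 39 were higher on the Otx2 side (0.408%) and 69 lower (0.722%). DESeq2 called 1 and 7, and without the section block edgeR called 0 and 2. No section could be left out, since 1 section would remain. The side was defined by Otx2 and Gbx2 themselves, which were not tested, nor were the genes of the rule.

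All 4 posterior Hox genes tested were lower on the Otx2 side, so higher in Gbx2-only pixels. Hoxa5 was at 150 and 70.6 CPM in Gbx2-only pixels of sections 1 and 3, against 10.5 and 9.80 in Otx2-only pixels (log2 fold change -3.37, adjusted p = 1.43e-09), and it held under DESeq2 and without the block. Hoxb9 was at 33.4 and 63.5 CPM against 4.76 and 5.35. Hoxb5 and Hoxc4 followed, and Hoxb4 and Hoxa2 were also lower on the Otx2 side. Apart from Hoxa2, which stood in the anterior hindbrain list, these Hox genes are known from the posterior hindbrain and spinal cord, away from the border.

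The glycine receptor gene Glra1 was at 97.8 and 98.8 CPM in Gbx2-only pixels against 1.90 and 9.80 (log2 fold change -4.01, adjusted p = 1.08e-09). Slc6a5, the glycine transporter of inhibitory neurons, rested on 6 and 6 counts there against 1 and 5. Lhx1 and Bhlhe22 of the 7 V1 interneuron genes tested, Lhx3 and Lhx4 of spinal interneurons and motor neurons, and the neuron genes Dcx, Elavl3, Nefl and Nefm were higher in Gbx2-only pixels as well. Dcx was at 689 and 1080 CPM there against 320 and 480. Chl1, Moxd1 and Grik3 were among the genes with the largest difference in this direction.

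On the Otx2 side, the forebrain genes Six3 and Lhx2 were higher. Six3 was at 72.3 and 86.0 CPM against 16.7 and 7.06 (log2 fold change 2.46, adjusted p = 0.000318). Of 10 genes of the FGF list tested, 3 passed in the same direction, Il17rd (2.43), Spry1 and Etv5, and so did Cnpy1, at 68.5 and 81.5 CPM against 23.8 and 28.2 (log2 fold change 1.54, adjusted p = 0.0388). Tal2 was at 54.2 and 43.7 CPM against 9.54 and 0.

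Nr2e1, a regulator of forebrain progenitors, had 94 counts in Otx2-only pixels and 0 in Gbx2-only pixels, at least 5.33-fold higher when the latter are set to a floor of 3 counts over both sections. The same bound was 5.56-fold for Stx3, 4.14-fold for Dmbx1 and 2.67-fold for Slc25a14. With 1 to 3 counts on the Gbx2 side, the ratio over both sections was 7.83 for Spry1 (95% counting interval 2.11 to 65.6), 7.32 for Etv5 (1.97 to 61.4), 7.43 for Parm1 (2.49 to 36.5), 8.23 for Otx1 (2.76 to 40.4) and 11.2 for Ptpn21 (1.95 to 450.4). Lamb2 also passed, on 142 against 4 counts. Of 8 red cell genes tested, 5 were higher on the Otx2 side, with Hbb-y at 10282 and 5512 CPM against 4743 and 3558, and the mesenchyme gene Col3a1 was at 388 and 238 against 148 and 191. The part of blood and mesenchyme in the other differences was not tested.

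Antibody tags for 22 surface proteins were counted in sections 1 and 3. As a percent of all antibody counts, 7 antibodies were higher and 6 lower in border pixels of both sections, and 9 differed in direction. CD49d (ITGA4), an integrin subunit, was at 2.48% and 1.63% in border pixels against 2.27% and 1.59%. Notch1 was at 4.87% and 4.57% against 4.66% and 4.45%, and the folate receptor at 0.827% and 1.38% against 0.795% and 1.33%. The endothelial protein ESAM was at 2.17% and 5.19% against 2.19% and 6.08%, CD41 (ITGA2B) at 1.82% and 1.68% against 1.83% and 1.81%, and EpCAM at 3.64% and 3.11% against 3.73% and 3.26%. For these last 3 the direction in section 1 flipped when the median of pixel shares was compared (ratios 1.01, 1.02 and 1.01). Over the 22 antibodies, ratios of border to other pixels lay between 0.847 and 1.13 by summed counts. By the median of pixel shares they lay between 0.768 and 1.22. With 2 sections no test was made.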

How the data were processed

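Transcripts and, in part of the sections, antibody tags were read by barcode on frozen sections, per the labels' protocols. The authors deposited whole-number counts per pixel and gene. The submitters' processing notes name CASAVA 1.8.2 and GRCh38, a human build name; aligner, annotation and strand use are not given in the sources used here. Precision is limited by the low counts per pixel.

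Pixels were selected as described, and counts were summed per section and class. Sums from the same section were paired by construction, so the section was a block in edgeR 4.0.16 (quasi-likelihood, TMM, R 4.3.3, limma 3.58.1), checked on simulated data; DESeq2 1.42.0 was an alternative, whose missing adjusted p-values were left out. The design named all 6 libraries, but a library needed at least 5 border pixels to enter, which left 3 sections, and the planned comparison of E11 with E10 could not be run. CPM is counts scaled to a class total of 1000000. Python 3.11.15 with numpy 2.4.6 and scipy 1.17.1 was used. Genes named are those of the rule, called genes of the lists, border genes whatever their value, and up to 12 called genes with the largest log2 fold change each way that moved alike in every section. The rule, members and lists were chosen with earlier results of these data known. Grouping, distances and stretches were chosen after seeing the data. Not every gene that this naming rule picks is reported here.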

Additional observations from a re-analysis of the deposited data

Results flagged for a closer look

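In the E10 section with 10 µm pixels (replicate 1), which the comparisons did not use, 6 pixels met the rule. They held 9 counts of Fgf17, 2 of En2, 1 of En1, 1 of Pax5 and 8 of Otx2, and none of Gbx2. Their median total was 15421 counts, against 5952 in the other Sox2-positive pixels of that section. In the E11 section with 10 µm pixels (replicate 1), also unused, 2 pixels met the rule. These held 2 counts of En2, 3 of Pax5 and 18 of Otx2.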

How the results depend on the processing

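The 165 genes called between border and other Sox2-positive pixels became 18 with DESeq2, 99 with at least 2 counts of Sox2, 286 for border pixels with a border neighbour and 76 for pixels at or above the median total. Leaving out a section gave 62 to 263. Without the replicate block, which pairs the sums of a section, 0 genes were called there and 2 of 108 between the Otx2 and Gbx2 sides, where DESeq2 called 8. Among alternatives chosen after seeing the data, the strips alone gave 352, border pixels outside them 14 and pixels paired on total count 55. Of 49 named called genes, 18 of 42 with a value held under that pairing and 6 of 46 outside the strips. Held-out En1 had a log2 fold change of 2.57 in DESeq2 without passing, and at least 3 summed counts left 175 border pixels.

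Log2 fold changes of some genes turned sign. With 1 section left out, they ran from -1.22 (without section 3) to 0.36 (without section 1) for Wnt1, -0.38 to 0.49 for Gbx2, -0.30 to 0.91 for Pax2, -0.33 to 0.21 for Lmx1b, -0.18 to 0.78 for Spry2, -0.13 to 1.21 for Spry4 and -0.84 to 0.93 for held-out Fgf17; Spry4 was -0.086 without section 2. In the strips, Wnt1 was 0.20, Gbx2 -0.87, Pax2 -1.17 and Spry4 -0.44. Outside them, Ccnd2 was -0.11, Lmx1b -0.42, Spry2 -0.082 and Etv5 -0.094. With at least 2 markers, Wnt1 was 0.071, Pax2 -0.28 and Lmx1b -0.023, and with at least 3 counts Wnt1 was 0.043. With a border neighbour, Pax2 was -0.10. With paired totals, Myh6 was 0.11, Pax2 -0.046 and Lmx1b -0.040. By median pixel shares in section 1, ratios were 1.01 for ESAM, 1.02 for CD41 and 1.01 for EpCAM. The cause was not tested.

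The fits had 2 residual degrees of freedom, and 1 for the Otx2 and Gbx2 sides, and the rule rests on few counts per pixel.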
